A study of Mus musculus with 7 samples.

Results

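The Sox genes described here are 8 transcription factor genes of neural progenitors and young neurons: Sox1, Sox2 and Sox3 of the SoxB1 group, Sox21 of the SoxB2 group, Sox4, Sox11 and Sox12 of the SoxC group, and Sox9 of the SoxE group. They were chosen by name, from the SoxB and SoxC groups with Sox9. These members and the gene lists below were chosen with earlier results of these data known. Sox14 of the SoxB2 group is not among them, and it lay at or below 0.266 in every library. All 8 were found among the 20294 genes of the deposited table, each as 1 RefSeq transcript. Messenger RNA was sequenced from mouse embryonic stem cells of the E14 line in the medium named 2i, which holds such cells in the naive state. Every library came from cells with a Brn2-RFP GAVPO induction cassette, in which a light-switched activator drives Brn2, and the libraries are labelled 0, 2, 4, 6, 14, 24 and 48 h of LED light at 300 µW. Brn2 is the POU factor listed in the table as Pou3f2. The cells of the library labelled 0 h carry the cassette too, no library of cells without it or of cells kept dark for a matching time was used here, and the labels do not say whether the line is 1 clone. With 1 library per time, 7 in all, replicates are lacking throughout, and a time below names the library that bears that label. The study follows expression after Brn2 induction.

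Sox proteins bind DNA through a high mobility group (HMG) box and commonly act beside a partner, often a POU factor such as Oct4 (Pou5f1) or Brn2. SoxB1 proteins hold stem cells and neural progenitors in their undifferentiated state, and Sox2 with Oct4 is part of the core pluripotency network. SoxC proteins act later, in cells that leave the cycle and become neurons, where they switch on neuronal genes such as Tubb3. Sox21 represses genes that SoxB1 proteins activate, as described in the chick neural tube, and Sox9 acts in neural stem cells, glia and neural crest.

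The kinship of the 8 genes is visible in their DNA. The stretch shown lies near the start of the HMG box, the part that all of them share. The 60 bases are from GENCODE M21 transcripts (GRCm38), 5′ to 3′ on the coding strand, and begin at the same codon in each gene. Capitals mark bases that differ from Sox2.
Sox2: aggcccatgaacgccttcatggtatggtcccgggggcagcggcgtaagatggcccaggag
Sox1: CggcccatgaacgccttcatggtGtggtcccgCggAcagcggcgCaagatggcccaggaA
Sox3: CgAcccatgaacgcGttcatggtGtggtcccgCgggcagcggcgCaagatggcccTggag
Sox21: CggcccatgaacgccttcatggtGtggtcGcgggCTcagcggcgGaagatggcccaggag
Sox4: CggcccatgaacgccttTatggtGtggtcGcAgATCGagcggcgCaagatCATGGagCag
Sox11: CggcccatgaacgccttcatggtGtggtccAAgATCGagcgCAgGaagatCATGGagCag
Sox12: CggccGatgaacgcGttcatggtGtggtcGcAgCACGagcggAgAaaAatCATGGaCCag
Sox9: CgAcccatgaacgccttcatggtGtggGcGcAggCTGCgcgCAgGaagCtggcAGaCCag
Sox1 and Sox21 each differ from Sox2 at 6 of the 60 bases and Sox3 at 7. Sox4, Sox11, Sox9 and Sox12 differ from it at 16, 17, 18 and 20 bases. Sox4 and Sox11 have 54 of 60 bases in common, whereas Sox3 and Sox12 have 40. Sox21 stands as near to Sox2 in this stretch as Sox1 does, although it belongs to the group that represses. No member shared a run of 50 bases with another member, so reads of that length could not be split between them.

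The libraries, whose values imply 7.04 to 16.15 M reads, kept stem cell markers throughout. Pou5f1 lay between 154 and 235, Nanog between 33.4 and 81.6, and Zfp42 between 34.3 and 58.3. Values behave as reads per kilobase of a gene's genomic span, scaled to library size. For 7 of the 8 genes, which have a single exon, the span holds no intron. Sox9 has 3 exons, so its value per kilobase of transcript would be higher than given. The induced gene itself was abundant in the library labelled 0 h, at 77.0 for Pou3f2, and lowest in the library labelled 48 h, at 7.19. At 2, 4, 6, 14 and 24 h Pou3f2 was 36.9, 47.3, 96.2, 119 and 41.3, so the 6 h and 14 h libraries stood above that at 0 h. The times below are therefore labelled times and not levels of Brn2. In a culture measured as a whole, fewer cells of a type and less RNA per cell cannot be told apart.

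Sox3 rose, and it was the only one of the 8 genes whose trend over labelled time passed the test on the deposited values. The 4 genes with the largest fitted changes were Sox3, Sox4, Sox12 and Sox11, and the other 4 had fitted changes under 1 on the log2 scale. Trends were tested with limma on log2(value + 1) against log2(hours + 1), with p-values adjusted by Benjamini-Hochberg over all 6411 genes tested, and each change below is the log2 change of the fitted line between 0 and 48 h. All 8 Sox genes passed the filter, a mean value of at least 1. Of all tested genes 0.296% rose at an adjusted p under 0.05 and 0.0624% fell. All 8 fitted changes were positive with a median of 1.45, where 50.5% of all tested genes had a positive change and their median was 0.01. Those of Sox1 (0.31 ± 0.35) and Sox2 (0.25 ± 0.27) were smaller than their standard errors. With each library's trend over GC content removed, Sox1 was -0.18 and the others stayed positive, Sox21 at 0.25 against 0.83. A second fit used the approximate number of reads behind each value (limma-voom, 13721 genes); in it Sox3, Sox4, Sox11 and Sox12 rose, 4 of 8, beside 1.93% of all genes.

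**Figure D1:**
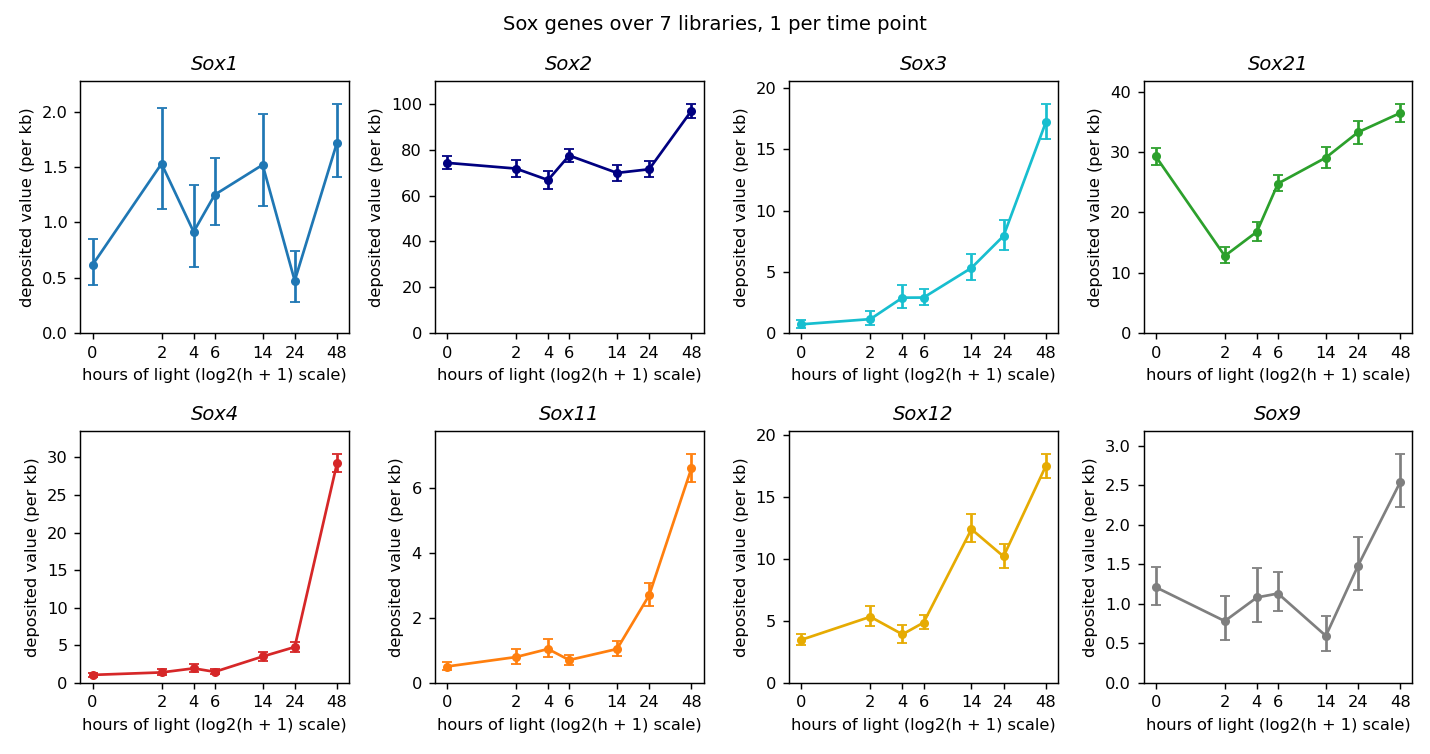
Deposited value per kilobase of each Sox gene (linear axis from 0, with its own range in each panel) against labelled hours of light, spaced by log2(hours + 1), 1 panel per gene and 1 point per library, with bars for the 95% interval of the read count, which covers counting error only. All 8 genes stand highest at 48 h, and Sox3, Sox4 and Sox12 have all of their 14 to 48 h values above all of their 0 to 6 h values. The intervals of Sox4 rest on read numbers that did not come out whole.

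Among the SoxB1 genes, Sox2, the partner of Oct4 in stem cells, was by far the most abundant. In the libraries labelled 0, 2, 4, 6, 14, 24 and 48 h, the order kept for every list of 7 values below, it was 74.3, 71.8, 66.8, 77.5, 69.9, 71.5 and 97.0, from 1160 to 3865 reads. The first 6 libraries lie close together and the library labelled 48 h stands above them, and the highest value is 1.45 times the lowest. The fitted change was 0.25 ± 0.27 (SE, n = 7 libraries), which limma did not call (adjusted p = 0.592).

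Sox3, a SoxB1 factor of the epiblast and neural plate, was, as deposited, higher in each library than in the one before. The 7 values were 0.716, 1.14, 2.89, 2.90, 5.32, 7.93 and 17.2. The reads behind these values were few at first, 22, 18, 42 and 82 in the libraries labelled 0 to 6 h, and then 100, 163 and 574. By counting error alone the 0 h and 2 h values overlap, as do those at 4 h and 6 h. The library labelled 48 h is 24.0 times the 0 h library. The fitted change was 3.40 ± 0.31 (adjusted p = 0.004 by limma), the lowest adjusted p of all tested genes. Such an unbroken order held for 8 of the 6411 tested genes, or 0.125%, and Sox3 is 1 of them. It breaks with the GC trend removed, where the log2 step of Sox3 from 4 h to 6 h was -0.60. Sox3 was called with any 1 library left out, with adjusted p between 0.004 and 0.032 by limma, where between 0.0155% and 0.847% of all genes rose.

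The transcript of Sox3 is 66.4% G and C, a content above that of 99.6% of tested genes, and libraries differed in how GC-rich genes stood. The GC trend at the content of Sox3 was -0.468, -0.257, -0.285, 0.323, 0.320, -0.218 and 0.585 on the log2 scale in order of time. With that trend removed the change of Sox3 was 2.53 ± 0.39, just short of a call (adjusted p = 0.058 by limma), and no gene was called, although 1172 genes had an unadjusted p under 0.05. With the trend divided out of the values before 1 was added, an alternative chosen after the data were seen, it was 2.81 (adjusted p = 0.049), beside 0.156% of all genes rising. On reads with the trend removed it was 3.85 (adjusted p = 0.015 by limma-voom), beside 1.47% of all genes. How far GC content enters the rise was not tested beyond these fits.

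Sox1, a marker of committed neural progenitors, stayed low. Values of 0.616, 1.53, 0.915, 1.25, 1.52, 0.473 and 1.72 came from 19 to 112 reads. The libraries go up and down with no order in time, and the lowest value is that at 24 h. The fitted change of 0.31 ± 0.35 did not pass (adjusted p = 0.616 by limma), and it was -0.18 with the GC trend removed. Pax6, another gene of neural progenitors, lay between 0.0201 and 0.0724.

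The SoxB1 sum, the values of Sox1, Sox2 and Sox3 added together, was 75.6, 74.5, 70.6, 81.6, 76.7, 79.9 and 116. Sox2 made up 98.2%, 96.4%, 94.6%, 94.9%, 91.1%, 89.5% and 83.7% of it. Sox3 went from 0.948% at 0 h to 14.9% at 48 h, while Sox1 never passed 2.05%. The ratio of Sox2 to Sox3 was 104, 62.7, 23.1, 26.7, 13.1, 9.02 and 5.63. These ratios and shares describe single libraries and carry no test.

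Sox21, the SoxB2 gene among the 8, was the second most abundant of them in every library. It stood at 29.3, 12.8, 16.8, 24.8, 29.1, 33.3 and 36.5, from 371 to 2236 reads. From the 2 h library on, the values go up in each step, but the 0 h library stands with the 14 h library. The 2 h value was 0.438 times that at 0 h, and Sox21 was the only 1 of the 7 Sox genes compared there that was at least 2-fold lower on the log2(value + 1) scale, beside 1.21% of all genes. The fitted change was 0.83 ± 0.47 (adjusted p = 0.318 by limma). Without the 0 h library it was 1.98 (adjusted p = 0.051), and on reads without that library 2.00 (adjusted p = 0.039 by limma-voom), where 2.54% of all genes rose. With the GC trend removed (58.3% G and C) the 48 h library stood below the 0 h library, by -0.46 on the log2 scale against 0.31 as deposited, so the order of these libraries turns on that step.

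Sox2 and Sox21 have opposing roles, and their ratio was 2.54, 5.60, 3.99, 3.12, 2.40, 2.15 and 2.66. As deposited, the ratio is highest at 2 h, where Sox21 is lowest, and lies in a narrow range from 14 h on. That range does not hold with the GC trend removed. The log2 ratios to 0 h at 14, 24 and 48 h were then -0.12, -0.17 and 0.31 for Sox2. For Sox21 they were -0.42, -0.01 and -0.46. The reference annotates Gm4675 over Sox21, with 17.8% of the 50-base words of Sox21 in it, searched on both strands. The sources used here do not say whether counting used strand, so reads from that shared stretch cannot be assigned to either gene.

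All 3 SoxC genes had larger fitted changes than Sox2 and Sox1, and the largest step was that of Sox4 between the libraries labelled 24 h and 48 h. Sox4, which acts in progenitors and young neurons and in many other tissues, had values of 1.05, 1.38, 1.92, 1.46, 3.50, 4.76 and 29.2, from 50 to 2258 reads. Its small values did not come out as whole reads, so its read numbers and counting intervals are less certain. The library labelled 48 h stands far above the rest, 27.9 times the 0 h library and 6.14 times the 24 h library. On deposited values the change was 3.36 ± 0.70 and did not pass (adjusted p = 0.062 by limma). On reads it rose by 5.16 ± 0.87 (adjusted p = 0.016), and by 5.07 with the GC trend removed (adjusted p = 0.026). Gm26735, another annotated gene, contains 54.1% of the 50-base words of the Sox4 transcript, searched on both strands. Reads from that stretch cannot be assigned to either gene. The reference also places Gm46405 over Sox4, Sox2ot over Sox2 and Sox1ot over Sox1.

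Sox11, the nearest relative of Sox4 and a factor of newly formed neurons, gave 0.501, 0.792, 1.04, 0.700, 1.04, 2.69 and 6.60, from 51 to 901 reads. The libraries labelled 0 to 14 h lie at or below 1.04, and those at 24 h and 48 h stand above them. The 14 h value equals the 4 h value at this precision. Its change of 2.07 ± 0.45 did not pass on values (adjusted p = 0.066 by limma). On reads Sox11 rose by 3.91 ± 0.68 (adjusted p = 0.018), and by 4.19 with the GC trend removed (adjusted p = 0.025).

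Sox12, a broadly expressed SoxC gene, was the most abundant of the group at the start. Its 7 values were 3.47, 5.33, 3.91, 4.86, 12.4, 10.2 and 17.5, from 122 to 1251 reads. The 3 later libraries all stand above the 4 earlier ones, and the largest step, a ratio of 2.56, lies between 6 h and 14 h. The change of 2.10 ± 0.38 did not pass on values (adjusted p = 0.052 by limma). On reads Sox12 rose by 2.49 ± 0.44 (adjusted p = 0.020), but with the GC trend removed it was 1.78 and not called (adjusted p = 0.070). Sox12 is 59.9% G and C, above 93.8% of tested genes.

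These 4 calls on reads were lost without the library labelled 48 h, as were those of all other rising genes. Without it no gene of 13385 rose, although 1112 had an unadjusted p under 0.05 in limma-voom, and the changes scaled to 48 h were 4.30 for Sox3, 2.78 for Sox4, 2.50 for Sox11 and 2.20 for Sox12. Their adjusted p-values were then 0.070, 0.240, 0.386 and 0.332 by limma-voom. In the same order, the changes with all 7 libraries were 4.69, 5.16, 3.91 and 2.49. With any other single library left out, these 4 genes were called on reads. On values, where the 48 h library was left out, Sox3 kept its call. Sox4 then had a change of 1.81, against 3.36 with that library (adjusted p = 0.289 by limma), and Sox11 one of 1.23, against 2.07 (adjusted p = 0.497). Sox12 moved less, to 1.85 against 2.10 (adjusted p = 0.428).

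**Figure D2:**
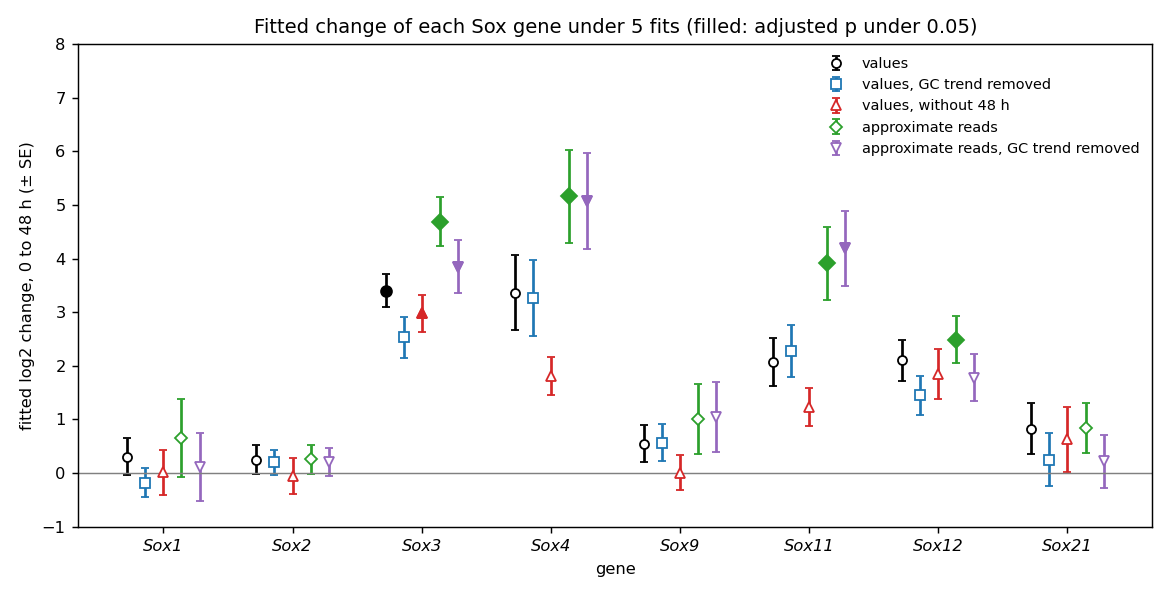
Fitted log2 change from 0 to 48 h of each Sox gene, with its standard error, in 5 fits, and filled symbols for an adjusted p under 0.05. Sox3 is filled in 4 of the 5 fits, Sox4 and Sox11 in both fits on reads, Sox12 in the fit on reads without GC removal, and the other 4 genes in none.

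The SoxC sum was 5.02, 7.50, 6.87, 7.02, 17.0, 17.6 and 53.3. The libraries fall at 3 levels, low to 6 h, higher at 14 h and 24 h, and highest at 48 h. Sox12 made up 69.2%, 71.1%, 56.8%, 69.2%, 73.3%, 57.8% and 32.8% of the sum. Sox4 went from 20.9% at 0 h and 27.0% at 24 h to 54.9% at 48 h, so the leading SoxC transcript at 48 h is another than before. Sox11 stayed between 6.13% and 15.2%. The ratio of the SoxB1 sum to the SoxC sum was 15.1, 9.93, 10.3, 11.6, 4.51, 4.54 and 2.18.

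**Figure D3:**
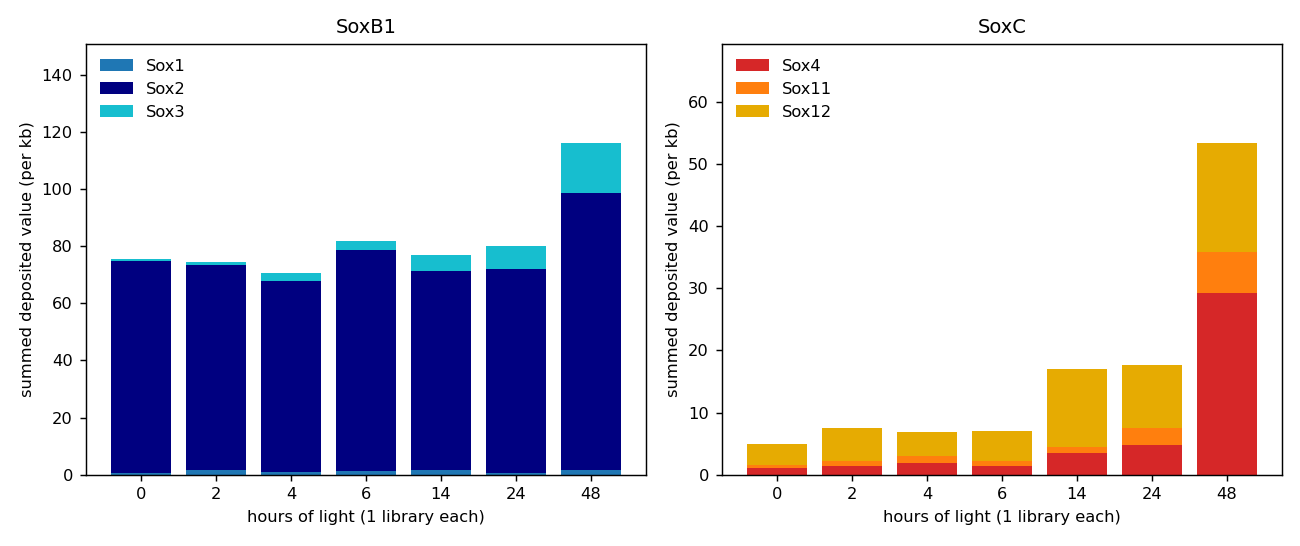
Summed values of the SoxB1 and SoxC genes per kilobase by labelled hours of light, 1 stacked bar per library with 1 colour per gene. The SoxC sum goes from 5.02 to 53.3 and the SoxB1 sum from 75.6 to 116, and Sox4 replaces Sox12 as the largest SoxC share at 48 h.

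The courses of the 4 genes are given as shares of their own difference. Of the log2 distance between 0 h and 48 h, Sox3 had covered 34.6% by 4 h, 55.2% by 14 h and 69.8% by 24 h. Sox12 had covered 77.6% by 14 h and stood at 64.7% at 24 h. Sox11 had covered 18.9% by 14 h and 55.4% by 24 h, and Sox4 29.2% and 38.4%. In these single libraries the largest log2 step of Sox12 lay between 6 h and 14 h, and those of Sox3, Sox4 and Sox11 between 24 h and 48 h. With the GC trend removed the course of Sox3 was another: at 4, 6, 14 and 24 h it stood at 42.4%, 16.7%, 46.4% and 90.4%, and its largest step, 1.04, lay between 14 h and 24 h, against 0.23 between 24 h and 48 h. Sox12 then stood at 93.2% at 14 h and 94.3% at 24 h. Sox4 (28.5% and 36.6%) and Sox11 (21.6% and 46.9%) kept their largest step between 24 h and 48 h. The order was not tested, since a time point has 1 library.

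**Figure D4:**
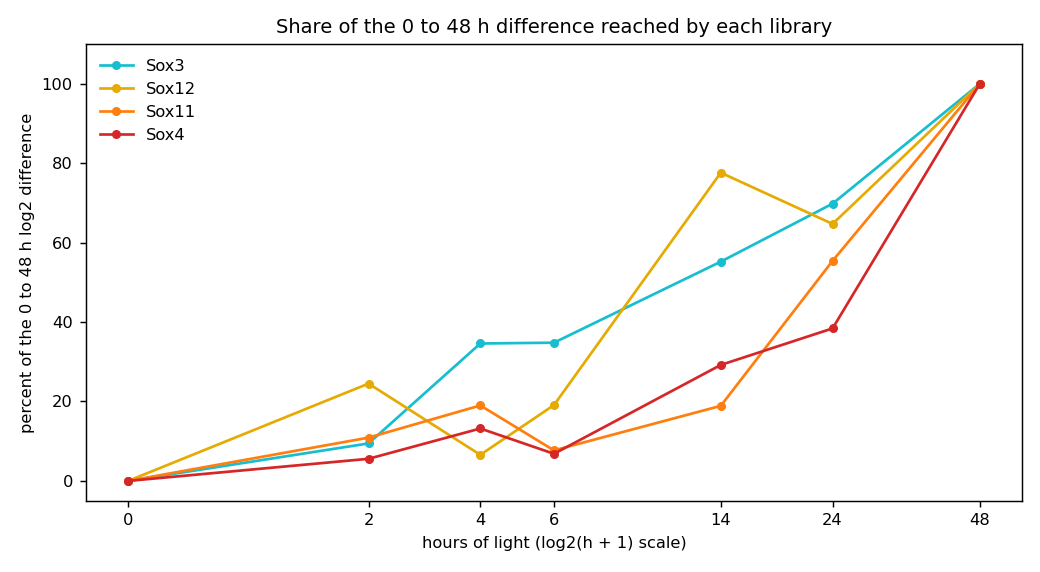
Percent of the log2 difference between the libraries labelled 0 h and 48 h that Sox3, Sox4, Sox11 and Sox12 had reached at each labelled time, on log2(value + 1), against hours spaced by log2(hours + 1), 1 point per library. At 14 h Sox12 stands at 77.6%, Sox3 at 55.2%, Sox4 at 29.2% and Sox11 at 18.9%, all as deposited, with no GC trend removed.

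Sox9, the SoxE gene, stayed low. Its values were 1.21, 0.781, 1.08, 1.13, 0.594, 1.48 and 2.54, from 30 to 228 reads. The 48 h library is highest and the 14 h library lowest, with the rest between. The change of 0.55 ± 0.34 did not pass on values (adjusted p = 0.355 by limma) or on reads (1.01, adjusted p = 0.367). Leaving out the library labelled 48 h gave 0.01 on values and -0.11 on reads, and leaving out that labelled 0 h gave 1.07 and 2.04, with no call in any of these. Sox10, the SoxE gene that marks neural crest, lay at or below 0.0344, and the glial gene Gfap at or below 0.0611.

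Each later library was also set against the 0 h library, on log2(value + 1), among genes at 1 or more in either. At 2 h no Sox gene was at least 2-fold higher, where 1.81% of all genes were. Sox3 was the only one at 4 h, beside 1.16% of all genes, and at 6 h, beside 2.32%. That 6 h log2 ratio of Sox3 was 1.19, and it was 0.39 with the GC trend removed and 0.47 with a pseudocount of 5, both under 2-fold. Sox3, Sox4 and Sox12 were so at 14 h beside 2.10%. With Sox11 added there were 4 at 24 h, beside 2.28%, and again 4 at 48 h, beside 8.26% of all genes. With a pseudocount of 5 the 4 h log2 ratio of Sox3 was 0.46. At 14 h Sox3 (0.85) and Sox4 (0.49) were then under 2-fold, and Sox12 (1.04) was not. At 24 h Sox4 (0.69), Sox11 (0.48) and Sox12 (0.84) were under it, and Sox3 (1.18) was not. At 48 h all 4 stayed at least 2-fold higher. The share of all genes was not counted with that pseudocount. Ratios of the bare values at 48 h were 2.79 for Sox1 and 2.10 for Sox9. All 14 to 48 h values lay above all 0 to 6 h values in 3 of the 8 genes and in 6.16% of all tested genes. The 48 h library held the highest value of all 8 Sox genes, which it did for 24.6% of tested genes; with the GC trend removed it did so for 6 of the 8, not Sox1 or Sox21, and for 20.6%.

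**Figure D5:**
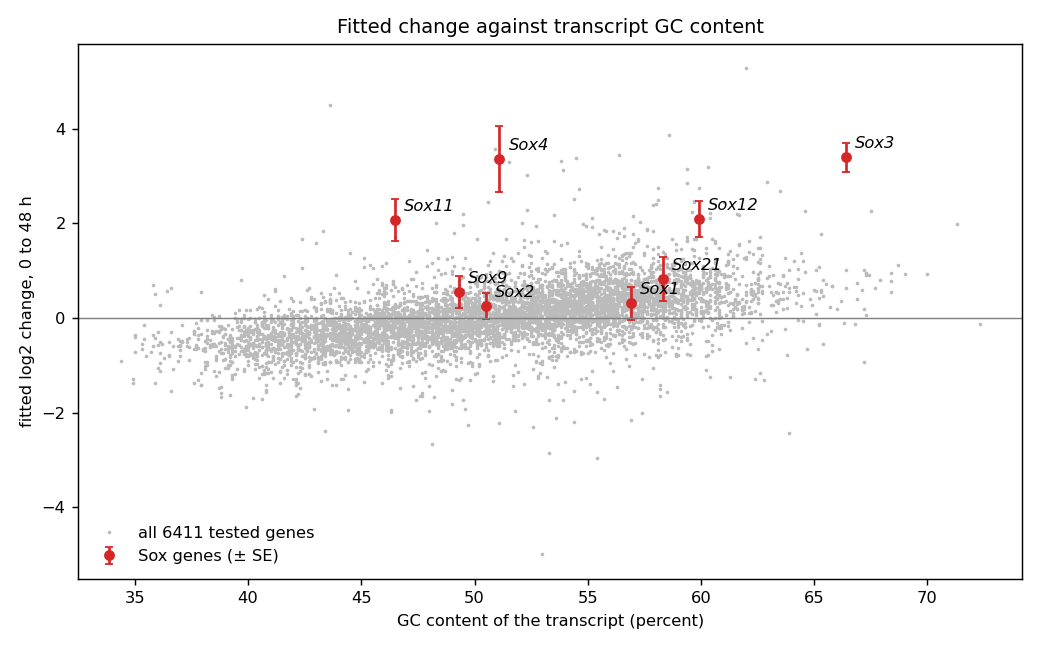
Fitted log2 change from 0 to 48 h against transcript GC content (percent), each grey point 1 of the 6411 tested genes and each named point a Sox gene with its standard error. Sox3 has the highest GC content of the 8, 66.4%, and the largest fitted change, 3.40, while Sox11 has the lowest, 46.5%, with a change of 2.07.

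The order of the 8 levels was the same at the top until 24 h. Sox2, Sox21 and Sox12 were the highest, in that order, in each library from 0 h to 24 h, except that at 4 h the counting intervals of Sox12 and Sox3 overlap. Below them the order shifted, and at 0 h the neighbours from Sox9 down to Sox11 do not differ beyond counting error. At 48 h the order was Sox2, Sox21, Sox4, Sox12, Sox3, Sox11, Sox9 and Sox1, in which only Sox12 and Sox3 overlap. Sox11, last of all at 0 h, stood above Sox9 and Sox1 at 24 h and 48 h.

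Other genes of the family mostly had low values per kilobase of genomic span. Of 12 other Sox genes in the table, only Sox15, a gene of stem cells and placenta, reached a mean of 1. It lay between 1.51 and 4.62 (change 0.41, adjusted p = 0.615 by limma). A filter on values per kilobase of span can leave out a gene with many reads. Sox13, at 0.348 to 1.06, had 2224 reads in all, against 414 for Sox15. On reads 7 of the 12 were tested, Sox13 among them, and none passed. Sox18, a gene of blood vessels, stood at 0.224 at 0 h and 2.75 at 48 h, from 80 reads in the latter, and was too low in the earlier libraries to test.

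No partner gene of Sox proteins was called. Of 9 partner genes listed there, 6 were tested and none passed, with a median change of -1.31. Pou5f1 was 154 at 0 h and 235 at 48 h, with a change of 0.37 (adjusted p = 0.449 in the limma fit). Pou3f1, Pou3f2 and Pou3f4 were lowest in the library labelled 48 h, where the Sox genes were highest. For Pou3f1 the 0, 14 and 48 h libraries gave 270, 446 and 18.0 (-2.44, adjusted p = 0.239 by limma). Pou3f4 was 36.7 at 0 h, 80.2 at 6 h, its highest value, and 3.71 at 48 h (-1.97, adjusted p = 0.296).

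Of 9 genes described as bound by SoxB1 proteins, 8 were tested on values and none passed, with a median of 0.14. On reads all 9 were tested and 3 rose, beside 1.93% of all genes: Utf1, a chromatin factor of stem cells, from 28.7 at 0 h to 364 at 48 h (adjusted p = 0.039 by limma-voom); Lefty1, a Nodal antagonist, from 0.220 to 17.6 (adjusted p = 0.015); and Cdh2, or N-cadherin. Fgf4, which Sox2 and Oct4 switch on together, lay between 49.8 and 105 and did not pass on values (adjusted p = 0.871 by limma). Of 5 genes described as bound by SoxC proteins, 2 were tested on values and neither passed. Tubb3, a neuronal tubulin, was 5.40 at 0 h and 44.6 at 48 h (1.85, adjusted p = 0.128). On reads 1 of 4 rose, Map2, a dendritic microtubule protein at 0.00779 at 0 h and 0.116 at 48 h per kilobase of a long span (adjusted p = 0.011).

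Of 12 neuronal precursor genes in the list 8 were tested on values and 4 rose, beside 0.296% of all genes. They were Neurod1, a proneural factor (4.51, adjusted p = 0.041 by limma), Insm1, a zinc-finger factor of precursors (5.28, adjusted p = 0.049), the Notch ligand Dll1 (1.94, adjusted p = 0.036) and Crmp1, a growth cone protein (2.11, adjusted p = 0.041). On reads 7 of 12 rose, beside 1.93% of all genes. Stmn1 (71.3 at 0 h and 85.3 at 48 h, adjusted p = 0.361) and Nhlh1 on values (0.114 at 0 h and 12.0 at 48 h, adjusted p = 0.136) did not pass.

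Markers of other cell types were mostly low per kilobase of genomic span, and some were higher in the library labelled 48 h. In the sums below, a gene of long span counts for less than its reads would. Summed over the 5 neural crest genes the level was 4.37 to 11.4, most of it Foxd3, which stem cells express too. Mesendoderm genes summed to 1.75 to 6.39, with Foxa2 at 0.115 at 0 h and 4.62 at 48 h, and Foxa2 was the 1 of 4 tested on reads that rose (adjusted p = 0.008 by limma-voom). The 6 primitive endoderm genes summed to 0.484 to 1.39 and the 5 glial genes to 0.548 to 1.35, with 5 of the former and 1 of the latter tested on reads, none of which passed, and none tested on values. Neural progenitor genes summed to 2.59 to 9.41, with Hes5 at 5.52 at 48 h, and none of 3 tested passed. The neuron genes summed to 6.89 to 48.5, most of it Tubb3 per kilobase of span. In reads Stmn2 had 1150 at 0 h and 3093 at 48 h, against 840 and 7535 for Tubb3. Feeder fibroblast genes summed to 0.417 to 3.24. Of 2 tested on reads, Col1a2 rose (adjusted p = 0.012 by limma-voom) and Thy1 did not pass (adjusted p = 0.668). Col1a1, Col3a1 and Postn were too low to test, with 48, 4 and 18 reads in all. The part of these cells in the values of the Sox genes was not tested.

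The genes whose course was most like that of each Sox gene were found by Pearson r over the 7 libraries, which is a description and no test. The search ran over 827 or 828 genes of mean at least 5 whose log2 values ranged over at least 1, and the 7 points share libraries, depth and base composition. For Sox3 they were Pcbp4 (r = 0.959), Cldn6 (0.953) and Uqcr11 (0.952). Cldn6 is a tight junction protein, and it stood at 2.14 at 0 h and 18.5 at 48 h.

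The same measure put Sox4 and Sox11 beside shared genes. For Sox11 they were Mycn (r = 0.996), Castor1 (0.973) and Sox4 itself (0.973), and for Sox4 they were Castor1 (0.980), Mycn (0.972) and G0s2 (0.961). Mycn, a growth-promoting factor of progenitors, had 9.85, 12.9, 23.8 and 50.3 at 0, 14, 24 and 48 h. Sox12 followed other genes: Twf2 (0.992), Fads1 (0.987) and Pafah1b3 (0.974). Fads1, a fatty acid desaturase, had 6.19, 14.2 and 19.1 at 0, 14 and 48 h.

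For Sox2 the closest were Cst3 (r = 0.949), Mfsd10 (0.930) and Ly6g6e (0.927). For Sox21 they were Fam122a (0.948), Cited4 (0.928) and Prr23a3 (0.917). Cited4 was, like Sox21, lowest at 2 h, with 33.7, 2.51 and 32.9 at 0, 2 and 48 h. Sox1 was most like Ier2 (0.964), H3c11 (0.932) and Ier5l (0.929), and Ier2 is an immediate early gene. Sox9 was most like Ifitm1 (0.955), Gpx2 (0.925) and Ly6e (0.918).

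Promoter windows were read for the members because Brn2 is a POU factor, and POU factors bind an octamer. RefSeq windows from 250 bases before to 50 after the start (GRCm38.p6) matched 6 of the 8 genes, all but Sox3 and Sox9. The octamer ATGCAAAT, searched on both strands, occurred in 570 of all 32851 windows, or 1.74%, and in those of Sox1 and Sox12. Their windows are shown because they hold it, in capitals, at bases 269 to 276 in Sox1 and 56 to 63 in Sox12, counted from 1 at the 5′ end.
Sox1, chr8:12395269-12395568, plus strand: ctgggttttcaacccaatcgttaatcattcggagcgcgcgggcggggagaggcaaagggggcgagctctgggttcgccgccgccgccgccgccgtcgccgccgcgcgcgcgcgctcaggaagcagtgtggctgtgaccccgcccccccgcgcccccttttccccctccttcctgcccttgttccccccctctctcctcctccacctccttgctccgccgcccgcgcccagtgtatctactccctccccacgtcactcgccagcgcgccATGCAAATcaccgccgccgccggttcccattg
Sox12, chr2:152397997-152398296, minus strand: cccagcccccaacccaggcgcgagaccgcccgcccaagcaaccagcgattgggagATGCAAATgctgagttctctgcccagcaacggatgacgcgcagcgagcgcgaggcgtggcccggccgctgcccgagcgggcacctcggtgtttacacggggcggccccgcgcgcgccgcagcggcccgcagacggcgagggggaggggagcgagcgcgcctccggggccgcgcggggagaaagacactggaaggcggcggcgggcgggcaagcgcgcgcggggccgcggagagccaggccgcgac
ACAAAG, a core site of HMG boxes, occurred in the Sox2 window and in 18.7% of all windows. ACAATG, the other core site, occurred in none of the 6 and in 12.6% of all windows. A match here is a run of letters and not a shown binding site. Against the 0 h library, values in the 6 later libraries were 1.54, 1.13, 1.40, 3.58, 2.94 and 5.03 times as high for Sox12. For Sox1 they were 2.48, 1.48, 2.03, 2.47, 0.768 and 2.79 times. With the GC trend removed Sox12 at 6 h also lay below 0 h (-0.17 on the log2 scale), and Sox1 at 6 h and 48 h stood at 0.02 and 0.10. Sox4 and Sox11, whose windows lack the octamer, lay above 0 h in every later library too, by 1.32 to 27.9 and 1.40 to 13.2 times. Sox2 and Sox21, also without it, lay below 0 h in some libraries. A role of the octamer was not tested.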

How the data were processed

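Messenger RNA of 7 libraries, 1 per labelled time, was analysed. Per the labels' protocols an RNeasy kit and a Lexogen SENSE kit were used, and the submitters' processing notes name Bowtie2 (no version) and mm9; the sources used here do not give the counting method. The deposited values are 1 number per transcript with no unit named. Multiplied by genomic span, 76.9% to 77.9% of those between 2 and 20 reads came within 0.1 of whole reads (chance gives 20%), so read numbers here are approximate, with spans from GRCm38; those of Sox4 did not come out whole. Symbols were matched by accession for 26245 of 26658 RefSeq rows, since the name column left Sox12 blank and called Sox21 LOC100043825. The row of highest mean was used for each gene.

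Trends were fitted with limma 3.58.1 (lmFit, eBayes with trend) in R 4.3.3 on log2(value + 1) for genes of mean at least 1, with 5 residual degrees of freedom and a threshold of 0.05 on the adjusted p. The p-values take the 7 libraries as independent points about a line. GC trends were natural splines with 5 degrees of freedom over 2459 genes of mean at least 5. The limma-voom fit needed at least 10 reads in 3 libraries. Intervals are 95% Poisson intervals and cover counting error only. The design foresaw counts or normalized values, of which the latter's test was applied. The fits were tested on simulated data. Members, lists, tests and the rule for named genes (all members, the 3 most similar genes of each, up to 4 of each list by size of change) were chosen with earlier results of these data known, and some further list genes were named after their values were seen. Alternatives were normalization, filter, pseudocount, time scale, GC removal, reads and each library left out.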

Additional observations from a re-analysis of the deposited data

How the results depend on the processing

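The counts of genes called depend on the settings more than the direction of the Sox genes does. Against 19 genes rising, 4 falling and 1 Sox gene rising, the counts in that order were 0, 0 and 0 with the GC trend removed (also with 3 spline degrees of freedom, or with GC content held within its 1st and 99th percentile, both chosen after seeing the data), 0, 0 and 0 with no filter, and 0, 0 and 0 with a pseudocount of 5. They were 36, 7 and 3 with a pseudocount of 0.1, 162, 28 and 4 with linear hours, 43, 12 and 2 with the rank of time, 265, 84 and 4 on reads, and 201, 59 and 3 on reads with the GC trend removed, the last chosen after seeing the data. With the GC trend divided out 10 rose, under quantile normalization 1 rose and 0 fell, with a mean of at least 5 there were 1 falling and 2 Sox genes rising, and with a step at 14 h 26 fell. With 1 library left out, 1 to 54 rose, 0 to 25 fell and 1 to 3 Sox genes rose; Sox4 passed without the 0 h library (4.56, adjusted p = 0.031 by limma), and Sox12 without that at 0 h (2.55, adjusted p = 0.047) or 6 h (2.08, adjusted p = 0.047).

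Without 1 library the change of Sox1 ran from -0.05 to 0.66 and that of Sox2 from -0.05 to 0.46. Sox1 turned to -0.18 in the 3 fits with the GC trend removed on the log scale and to -0.05 without the 0 h library; Sox2 turned to -0.06 under quantile normalization and -0.05 without the 48 h library. The cause was not tested. Sox3 kept its direction but missed the threshold at 2.53, 2.50 and 2.56 in those GC fits, at 3.40 with no filter (adjusted p = 0.207), at 1.89 with a pseudocount of 5 (adjusted p = 0.064) and at 1.88 as a step (adjusted p = 0.058). Of the fitted changes of the 8 genes under these alternatives, those on reads with a library left out not counted, 153 kept direction and side of the threshold, 16 passed it, 6 missed it and 6 changed sign. On reads Sox1 turned to -0.14 without the 0 h library, and Sox2 to -0.06 and Sox9 to -0.11 without that at 48 h, where the 4 calls on reads were lost too. No paired analysis was possible because each time point has 1 library and no replicate numbers. Depth limits Sox1, Sox3, Sox4, Sox9 and Sox11, with 100 reads or fewer in several libraries. The median gene moved by 0.004 on the log2 scale between 0 h and 48 h.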
